A study of Homo sapiens with 4 samples.

Results

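The genes described here are 10 transcription factor and early response genes of the AP-1 and immediate early group, *FOS*, *FOSB*, *FOSL1*, *FOSL2*, *JUN*, *JUNB*, *JUND*, *ATF3*, *EGR1* and *IER2*. They were chosen by symbol, and all 10 were present among the 33694 genes of the count matrices. Single-cell RNA-seq of 3′ transcript ends was performed on OVCA420, an established human ovarian cancer cell line, in 4 libraries. The Ctrl library held untreated cells, and the 1-day, 3-day and 7-day libraries held cells given 10 ng/mL TGF-β1 for 1, 3 or 7 days. Treatments were staggered so that all libraries were collected together, TGF-β1 was renewed with fresh medium during the longer treatments, and all cells were detached with trypsin before capture. There was 1 library per time point, so the differences between libraries have no replicate check, and no test was made. An interval below is a 95% interval of counting error only.

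AP-1 is a dimer of basic leucine zipper proteins. JUN family proteins pair with each other or with FOS family proteins, whereas FOS family proteins need a JUN partner to bind DNA. Subunits differ in how they act. FOS, FOSB and JUN carry strong activation domains, FOSL1 and FOSL2 are weaker activators that are often long-lived, and JUNB and JUND can oppose JUN at some genes. Immediate early genes are those that growth factors and stress switch on without new protein synthesis, usually for a short time. TGF-β signals through SMAD proteins, which can bind DNA together with AP-1, and through MAP kinases, which act on FOS and JUN.

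*FOS*, *FOSB* and *EGR1* are classical targets of serum and cAMP signals, and the bases next to their start sites are shown because *FOS* and *FOSB* both hold a CRE half-site and a TATA box at similar positions but differed in opposite directions between Ctrl and 1-day. Each sequence covers the 150 bases before the RefSeq start site (GRCh38.p14, plus strand), at chr14:75278678-75278827 for *FOS*, chr19:45467846-45467995 for *FOSB* and chr5:138465329-138465478 for *EGR1*. Capitals mark the CRE half-site TGACGT or its reverse complement, the TATA box TATAAA and the CArG box, the site of serum response factor.
FOS: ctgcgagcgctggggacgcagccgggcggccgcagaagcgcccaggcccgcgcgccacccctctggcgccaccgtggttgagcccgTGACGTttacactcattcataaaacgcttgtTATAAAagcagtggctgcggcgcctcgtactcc
FOSB: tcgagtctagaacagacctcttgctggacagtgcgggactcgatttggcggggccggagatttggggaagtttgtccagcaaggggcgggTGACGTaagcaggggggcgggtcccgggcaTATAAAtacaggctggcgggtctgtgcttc
EGR1: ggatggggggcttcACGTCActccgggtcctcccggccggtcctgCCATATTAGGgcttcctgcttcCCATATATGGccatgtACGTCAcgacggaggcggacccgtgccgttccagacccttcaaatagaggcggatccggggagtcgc

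The half-site starts at base -64 in *FOS* and -60 in *FOSB*, and the TATA box at -33 and -30. *FOSB* also holds the SMAD box CAGAC, not capitalised above, at -138 and -11, and *EGR1* holds it at -36. *FOS* holds none in its window, nor do *JUN* and *JUNB*. A link between these boxes and the levels was not tested. *EGR1* holds CArG boxes at -105 and -83 and half-sites at -136 and -67. Both strands were searched over windows from 250 bases before to 50 after the start site, and matches to different motifs did not overlap. Windows were at hand for 9 of the 10 genes, with a second start site for *ATF3*. *FOSL1* had no window, so its promoter was not searched. The CRE half-site occurred in 5 of these 9 genes (*FOS*, *FOSB*, *EGR1*, *JUND* and *FOSL2*) against 7.98% of 35116 promoters, and the TATA box in 4 of 9 against 11.5%. Within these windows a CArG box occurred in *EGR1* alone against 1.29%, and the AP-1 site TGACTCA in *FOSL2* alone, 5 bases after its start, against 4.95%. Bases further than 250 before the start were not searched, so genes without a match here, such as *FOS* for the CArG box, may hold one there. The SMAD box occurred in 5 of 9 against 45.3% of promoters, and the EGR core GTGGGCG in 0 of 9 against 9.52%. A gene was counted if any of its windows matched, whereas the shares of promoters count each window. *ATF3* matched the TATA box, at -230, and the SMAD box, at -75, only at its second start site. A match is only a run of letters, and binding was not measured in these libraries.

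The matrices as used here cover the cells listed first in barcode order, 941 of 3372 in the Ctrl list, 945 of 2601 in the 1-day list, 712 of 2253 in the 3-day list and 572 of 2484 in the 7-day list. After filtering, 3144 cells with 25382817 to 32949874 UMIs (unique molecular identifiers, each a captured transcript molecule) per library remained. The libraries differed in other ways than in the members. Median UMIs per cell were 30270, 32393, 43553 and 43382 from Ctrl to 7-day, the share of cells called G1 was 25.3%, 77.7%, 47.2% and 36.4%, and the median share of mitochondrial UMIs was 8.31%, 7.42%, 6.22% and 6.26%. Of 3147 distinct barcodes, 23 occurred in more than one library. *EPCAM* and the keratins *KRT7*, *KRT8*, *KRT18* and *KRT19* were at 297 CPM (UMIs of the gene per 1000000 UMIs of the library) or more in every library. *MUC16*, *WFDC2* and *PAX8*, markers of many ovarian carcinomas, were at 2.97 CPM or less, so the ovarian origin rests on the label. The leukocyte, endothelial and fibroblast markers, 14 genes, were at 1.10 CPM or less, except *CD79A* (2.70 to 7.88 CPM) and *CDH5* (5.37 CPM in Ctrl), and *COL3A1* and *CLDN5* were at 0. The TGF-β1 response genes *PMEPA1*, *TGFBI*, *SMAD7*, *SKIL* and *LTBP2* were each at least 2-fold higher in all 3 treated libraries. Levels are CPM of UMIs summed over cells. Since each UMI stands for 1 transcript end, no correction for gene length enters.

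The FOS family changed its make-up, while its summed level moved little up to 3-day and was 1.28-fold above Ctrl at 7-day. *FOS* was lower at each later time point, *FOSB* was high at 1-day alone, and *FOSL1* was lowest at 1-day and highest at 7-day. *FOS* (ENSG00000170345, GRCh38 chr14:75278826-75282230), the prototype growth factor-induced subunit, stood at 19.7 CPM (18.2 to 21.4) in Ctrl, 10.6 (9.54 to 11.8) at 1-day, 5.76 (4.96 to 6.65) at 3-day and 3.11 (2.46 to 3.88) at 7-day. None of these intervals overlapped, and the 7-day level was 6.34-fold lower than Ctrl, a log2 ratio of -2.67 (-3.02 to -2.32). Over all cells the step from one library to the next was of nearly the same size each time, with log2 ratios of -0.89 at 1-day against Ctrl, -0.88 at 3-day against 1-day and -0.89 at 7-day against 3-day. By cell cycle phase the steps were -0.99, -0.93 and -1.09 in G1 cells. They were less even in G2M cells, at -1.17, -0.50 and -0.94, and in S cells, at -1.47, -0.44 and -0.44 with wide intervals. The last step rests on few UMIs, 185 and 79, and was -0.32 in the earlier-listed and -1.49 in the later-listed cells when each library was split at the middle of its barcode order. The first step was -1.11 and -0.70 in the same split.

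*FOSB* (ENSG00000125740, chr19:45467995-45475179), which resembles *FOS* in its activation domain, stood at 5.73 CPM (4.91 to 6.66) in Ctrl, 19.4 (17.9 to 20.9) at 1-day, 6.97 (6.09 to 7.94) at 3-day and 5.40 (4.53 to 6.38) at 7-day. The 1-day library stood apart, 3.38-fold above Ctrl (log2 ratio 1.76, 1.51 to 2.01), and the intervals of Ctrl overlapped those of 3-day and 7-day. *FOSB* lies across from *ERCC1* on the other strand, and whether counting used the strand is not given in the sources used here. *FOSL1* (ENSG00000175592, chr11:65892049-65900573), which encodes FRA-1, a subunit often abundant in invasive carcinoma cells, stood at 46.5 CPM (44.1 to 49.0), 36.6 (34.6 to 38.7), 52.4 (49.9 to 54.9) and 87.8 (84.2 to 91.5). Its order was 7-day, 3-day, Ctrl and 1-day with no overlap of intervals, and its log2 ratio of 7-day to Ctrl was 0.92 (0.82 to 1.02), short of 2-fold. *FOSL2* (ENSG00000075426, chr2:28392448-28417317), which encodes FRA-2, varied least of all members, from 52.1 CPM (49.6 to 54.8) in Ctrl and 52.2 at 1-day to 61.3 at 3-day and 62.4 (59.4 to 65.6) at 7-day. Its Ctrl and 1-day intervals overlapped, as did those of 3-day and 7-day, and it overlaps an antisense RNA.

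**Figure D1:**
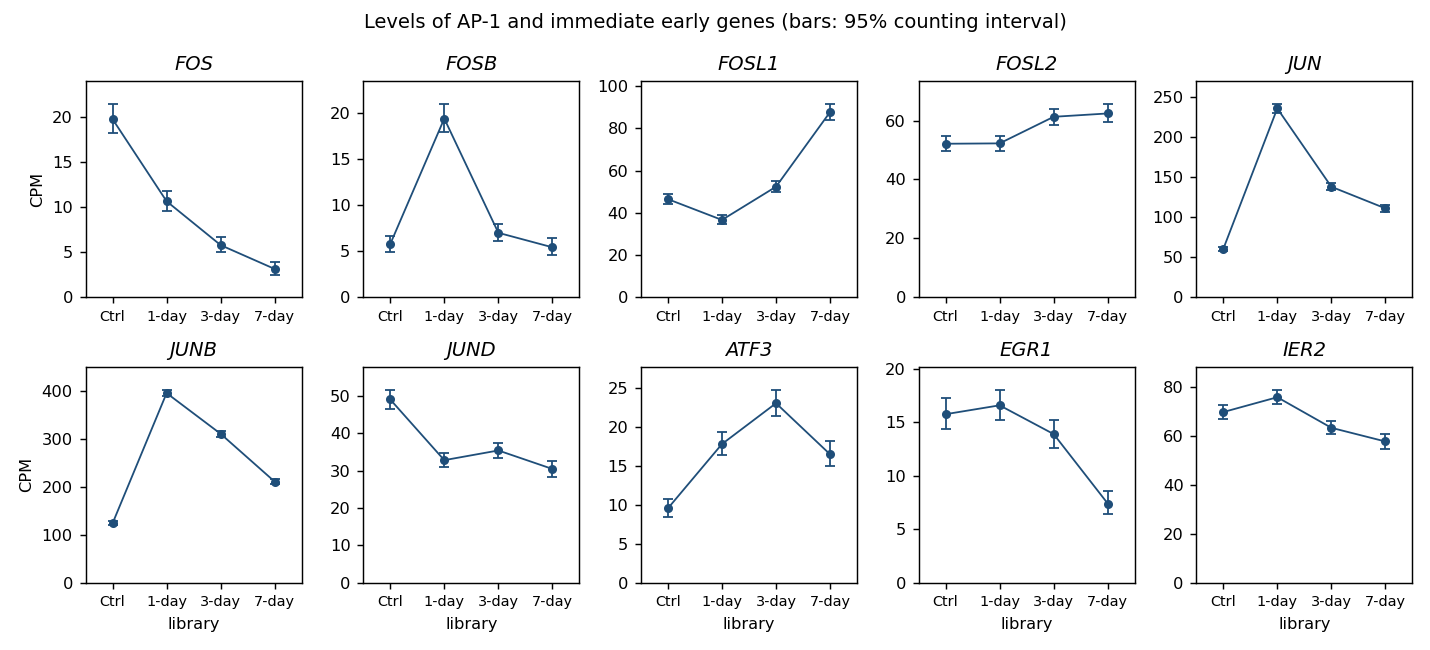
Level of each member in CPM (vertical axis from 0, a scale of its own in each panel) in the Ctrl, 1-day, 3-day and 7-day libraries, 1 library each. Bars are 95% counting intervals and lines only join the points, and the panels show *FOS* going from 19.7 to 3.11 CPM, *JUN* and *JUNB* highest at 1-day, and *FOSL1* highest at 7-day at 87.8 CPM.

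As shares of all FOS family UMIs, *FOS* made up 15.9% (14.7 to 17.1) in Ctrl, 8.94% (8.06 to 9.88) at 1-day, 4.56% (3.93 to 5.24) at 3-day and 1.96% (1.56 to 2.44) at 7-day. *FOSB* made up 4.62% (3.97 to 5.35), 16.3% (15.2 to 17.5), 5.52% (4.83 to 6.26) and 3.40% (2.86 to 4.01). Among the activating subunits *FOSB* therefore exceeded *FOS* in every treated library, most widely at 1-day, whereas in Ctrl *FOS* exceeded *FOSB*. At 3-day the intervals of the 2 shares overlapped. *FOSL1* made up 37.5% (35.9 to 39.0), 30.8% (29.4 to 32.3), 41.4% (39.9 to 43.0) and 55.3% (53.8 to 56.9), and over all cells was above *FOSL2* at 7-day alone. *FOSL2* ranged from 39.3% at 7-day to 48.5% at 3-day. The family total was 124 CPM (120 to 128) in Ctrl, 119 (115 to 123) at 1-day, 126 (122 to 130) at 3-day and 159 (154 to 164) at 7-day, and the intervals of Ctrl, 1-day and 3-day overlapped one another. The log2 ratio of the total at 7-day to Ctrl was 0.36 (0.29 to 0.42). Shares of UMIs are shares of captured transcripts and do not give amounts of protein.

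The JUN family moved in its total as well as in its make-up. *JUN* and *JUNB* were highest at 1-day and lower at each later time point, though at 7-day still above Ctrl, while *JUND* was below Ctrl throughout treatment. *JUN* (ENSG00000177606, chr1:58776845-58784048), the single-exon gene for the strongest activator of the family, stood at 59.9 CPM (57.1 to 62.7) in Ctrl, 236 (231 to 241) at 1-day, 138 (134 to 142) at 3-day and 111 (107 to 115) at 7-day. None of these intervals overlapped, and the log2 ratios to Ctrl were 1.98 (1.90 to 2.05), 1.20 (1.13 to 1.28) and 0.89 (0.80 to 0.97). In G1 cells alone the 3-day ratio was 0.85, short of 2-fold. *JUNB* (ENSG00000171223, chr19:12791486-12793315) was the most abundant member in all 4 libraries, at 124 CPM (120 to 128), 396 (390 to 403), 311 (305 to 317) and 211 (205 to 217). Its log2 ratios to Ctrl were 1.68 (1.62 to 1.73), 1.33 (1.27 to 1.38) and 0.77 (0.71 to 0.83), with no overlap of levels. *JUNB* overlaps *HOOK2* on the other strand. *JUND* (ENSG00000130522, chr19:18279694-18281622), usually the steadiest member in growing cells, stood at 49.1 CPM (46.6 to 51.6), 32.8 (30.9 to 34.8), 35.4 (33.4 to 37.5) and 30.5 (28.3 to 32.7). Ctrl was the highest, and the 1-day interval overlapped both of the other treated libraries.

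The JUN family total was 233 CPM (228 to 238) in Ctrl, 665 (656 to 674) at 1-day, 484 (477 to 492) at 3-day and 352 (345 to 360) at 7-day. The total was 2.85-fold above Ctrl at 1-day and 1.51-fold above it at 7-day. *JUNB* made up 53.2%, 59.6%, 64.2% and 59.9% of it, and *JUN* 25.7%, 35.5%, 28.5% and 31.5%. *JUND* made up 21.1% (20.1 to 22.0) in Ctrl and 4.93% (4.65 to 5.23) at 1-day, then 7.31% (6.90 to 7.73) at 3-day and 8.64% (8.07 to 9.24) at 7-day. The largest change of share within this family was thus that of *JUND* between Ctrl and 1-day, to which a lower *JUND* level and higher *JUN* and *JUNB* levels both contribute.

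**Figure D2:**
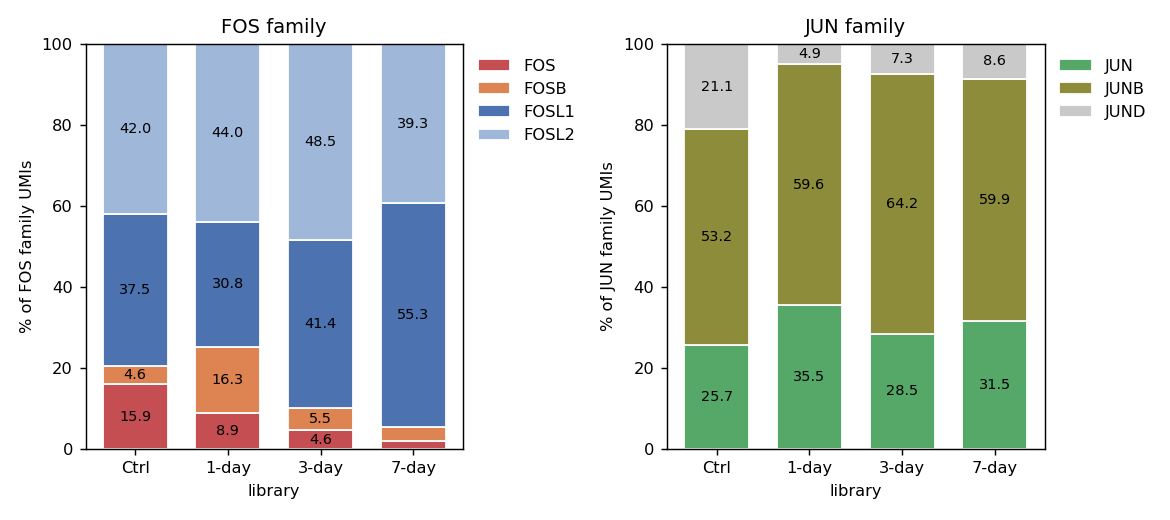
Percent of FOS family UMIs (left) and JUN family UMIs (right) held by each gene in the 4 libraries, as stacked bars from 0 to 100%; numbers are the shares of 4% or more. *FOSL1* widens from 37.5% in Ctrl to 55.3% at 7-day as *FOS* narrows from 15.9% to 1.96%, and *JUND* narrows from 21.1% to 4.93% at 1-day.

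Of the 3 members outside these families, *ATF3* was highest at 3-day, and *EGR1* and *IER2* had the same order of libraries, with 1-day highest and 7-day lowest. *ATF3* (ENSG00000162772, chr1:212565334-212620777), a stress-induced leucine zipper protein that binds SMAD3 and often acts as a repressor, stood at 9.53 CPM (8.46 to 10.7) in Ctrl, 17.8 (16.4 to 19.3) at 1-day, 23.0 (21.4 to 24.7) at 3-day and 16.5 (14.9 to 18.1) at 7-day. The 3-day level was 2.41-fold above Ctrl, and the 1-day and 7-day intervals overlapped. *EGR1* (ENSG00000120738, chr5:138465479-138469303), a zinc finger factor downstream of ERK and serum response factor, stood at 15.8 CPM (14.4 to 17.3), 16.6 (15.2 to 18.1), 13.9 (12.6 to 15.3) and 7.41 (6.39 to 8.54). Ctrl overlapped 1-day and 3-day, and the 7-day library was 2.13-fold below Ctrl (log2 ratio -1.09, -1.34 to -0.84). In G1 cells alone that ratio was -0.70, short of 2-fold. *IER2* (ENSG00000160888, chr19:13150411-13154911), an early response gene of the nucleus, varied between 57.8 CPM (54.9 to 60.9) at 7-day and 76.0 (73.0 to 79.0) at 1-day, with 69.9 in Ctrl and 63.4 at 3-day. It overlaps an antisense RNA.

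A member was counted as past 2-fold where the ratio of CPM was 2 or more and one library of the pair reached 5 CPM. From Ctrl to 1-day, *FOSB*, *JUN* and *JUNB* were higher and 0 of 10 were lower, against 9.04% and 9.97% of the 10013 genes at or above 5 CPM in either library. From Ctrl to 3-day, *JUN*, *JUNB* and *ATF3* were higher and *FOS* was lower, against 10.1% and 6.97% of 10088 genes. From Ctrl to 7-day, 0 of 10 were higher and *FOS* and *EGR1* were lower, against 12.1% and 6.22% of 10260 genes. Between 1-day and 3-day, *FOSB* was lower and 0 were higher, against 2.79% and 4.88%, and between 3-day and 7-day 0 of 10 were past 2-fold, against 0.800% lower and 1.73% higher. With 10 members, each of these percentages corresponds to about 1 gene or fewer. The median log2 ratio of the members to Ctrl was 0.10, 0.20 and 0.09 at 1-day, 3-day and 7-day, against -0.07, 0.02 and 0.10 over all genes.

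Several values lay close to the 2-fold line. Just inside it was *EGR1* at 7-day against Ctrl (-1.09). Just outside were *FOSL1* (0.92) and *JUN* (0.89) at 7-day against Ctrl, *ATF3* (0.90) at 1-day against Ctrl, each of the 3 steps of *FOS*, and *EGR1* at 7-day against 3-day (-0.91). The 3 treated libraries share the Ctrl library, so a deviation of Ctrl alone would enter every ratio to it. The step from 3-day to 7-day does not use Ctrl. In it the counting interval lay below 0 for 8 members, above 0 for *FOSL1* (0.75, 0.65 to 0.84) and included 0 for *FOSL2*. Of 9870 genes, 21.2% lay below 0 and 35.9% above 0. Whether an interval includes 0 depends on the number of UMIs as well as on the ratio. Small ratios such as that of *IER2* (-0.13, -0.23 to -0.04) are therefore counted. These 9870 genes were not matched to the members in level.

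The share of cells in which a member was detected depends on depth as well as on level. Unthinned, *IER2* was detected in 81.5% of Ctrl and 88.6% of 7-day cells although its level was lower at 7-day. Because depth per cell differed, each cell was also thinned to 18000 UMIs, which left 844, 900, 677 and 549 cells. *FOS* was then found in 23.7% of Ctrl cells (20.9 to 26.7), 14.2% at 1-day, 7.68% at 3-day and 5.10% (3.42 to 7.29) at 7-day, and before thinning in 34.8%, 22.0%, 16.5% and 10.4%. *FOSL1* was found in 52.7% (49.3 to 56.1), 43.8%, 56.4% and 72.7% (68.7 to 76.4) of thinned cells, and in 66.9%, 63.7%, 79.9% and 89.3% before thinning. *JUN* went from 54.9% of thinned Ctrl cells to 94.9% at 1-day, 84.8% at 3-day and 82.1% at 7-day, and from 68.2% to 98.0%, 96.2% and 96.0% unthinned. *JUN* was thus missing from nearly every second Ctrl cell at this depth and present in almost all 1-day cells, with a median of 1 and 7 UMIs per unthinned cell.

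*FOSB* was found in 8.06% (6.31 to 10.1), 25.0% (22.2 to 28.0), 11.1% and 8.74% of thinned cells, against 13.3%, 38.3%, 23.0% and 18.1% unthinned. *ATF3* was found in 13.9%, 22.6%, 28.4% and 20.9% of thinned cells, and *EGR1* in 21.8%, 24.3%, 20.1% and 10.4%. Unthinned, *ATF3* was found in 22.5%, 34.8%, 50.4% and 39.0% of cells and *EGR1* in 34.5%, 37.7%, 38.7% and 18.8%. These genes were thus detected in a minority of cells at this depth even where they were highest. The libraries hold a single cell line, with no cell type known to lack these genes, so the share that free RNA would give was not measured.

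**Figure D3:**
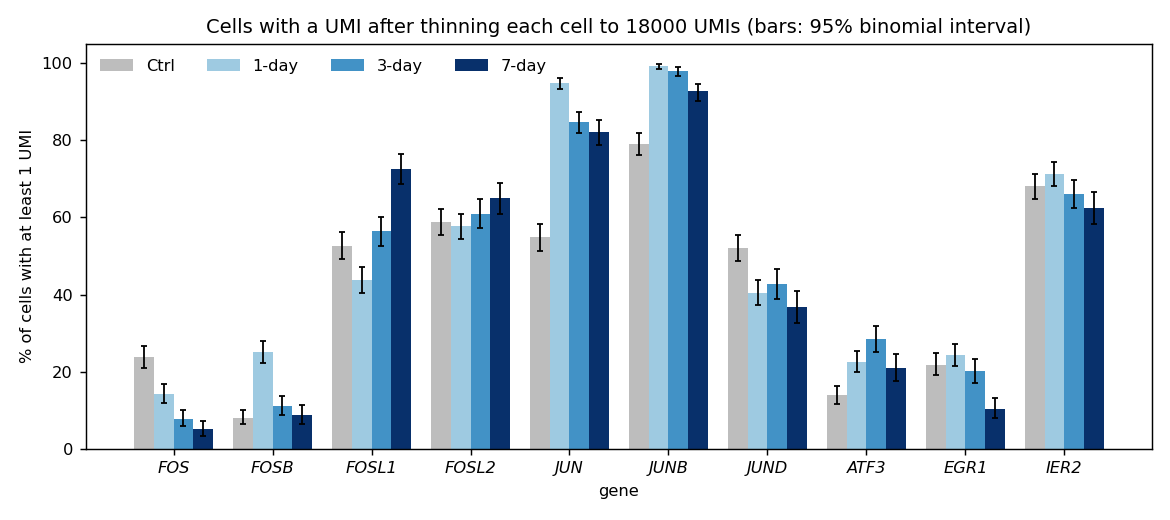
Percent of cells with at least 1 UMI of each member after thinning to 18000 UMIs per cell (vertical axis from 0), with 844 Ctrl, 900 1-day, 677 3-day and 549 7-day cells. Bars carry 95% binomial intervals, and *JUN* is seen to go from 54.9% to 94.9% between Ctrl and 1-day, while *FOS* goes from 23.7% to 5.10% between Ctrl and 7-day.

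*FOS* and *FOSL1* were found together in 13.3% of thinned Ctrl cells and 3.83% of 7-day cells, *FOS* alone in 10.4% and 1.28%, and *FOSL1* alone in 39.5% and 68.9%. Their counts were almost unrelated over cells of a library (Spearman rho -0.05 to 0.03), so the pairs add nothing to the separate shares of cells. *JUN* and *JUNB* together were found in 45.5% of Ctrl cells, 94.2% at 1-day, 83.3% at 3-day and 76.5% at 7-day. Within a library, counts of different members went together only weakly over cells of equal depth. Over 45 pairs the median Spearman rho lay between 0.03 at 1-day and 0.05 in Ctrl, and the highest was 0.23 for *JUNB* and *IER2* in Ctrl. The cells of a library share its preparation, and most counts were 0 or 1.

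Cell cycle phase, called from the S and G2M gene lists of Seurat, moved with the libraries, and some members differed by phase within a library. *FOSL1* was higher in G2M than in G1 cells in all 4 libraries. Its level in G2M against G1 cells was 47.7 against 40.5 CPM in Ctrl, 45.8 against 34.2 at 1-day, 63.7 against 41.6 at 3-day and 112 (106 to 119) against 52.6 (48.0 to 57.5) at 7-day. In S phase at 7-day it was 97.7 CPM (89.3 to 107). Compared within a phase, the log2 ratio of *FOSL1* at 7-day to Ctrl was 0.38 (0.16 to 0.59) in G1, 0.99 (0.80 to 1.18) in S and 1.24 (1.10 to 1.37) in G2M cells. In G1 cells alone its share of FOS family UMIs was 29.2% in Ctrl and 42.8% at 7-day, so the direction was the same from a lower start. Which of *FOSL1* and *FOSL2* was higher depended on phase. In 7-day G1 cells *FOSL1* was below *FOSL2* (52.6 and 61.0 CPM), whereas it was above it in Ctrl S phase cells (49.2 and 43.6) and in 3-day G2M cells (63.7 and 52.5).

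*JUNB* at 7-day also differed by phase, at 164 CPM in G1 and 240 in G2M cells, a log2 ratio of 0.55 (0.46 to 0.64), whereas in Ctrl the levels were 120 and 115. *EGR1* at 7-day ran the other way, at 9.93 CPM (7.99 to 12.2) in G1 and 4.60 (3.43 to 6.05) in G2M cells. *JUN* in Ctrl was at 74.2 CPM in G1 and 47.9 in G2M cells, and its log2 ratio of 7-day to Ctrl was 0.50 in G1, 0.85 in S and 1.20 in G2M cells. *FOSL2* at 7-day was not above Ctrl in G1 cells (61.0 and 68.3 CPM), but was in S (58.9 and 43.6) and G2M cells (65.2 and 49.4). *FOS* was lower at 7-day than in Ctrl in each phase, with log2 ratios of -3.01, -2.34 and -2.61 in G1, S and G2M. The 1-day library held only 27 S phase cells. The part of phase in the differences between libraries was not tested beyond these values.

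**Figure D4:**
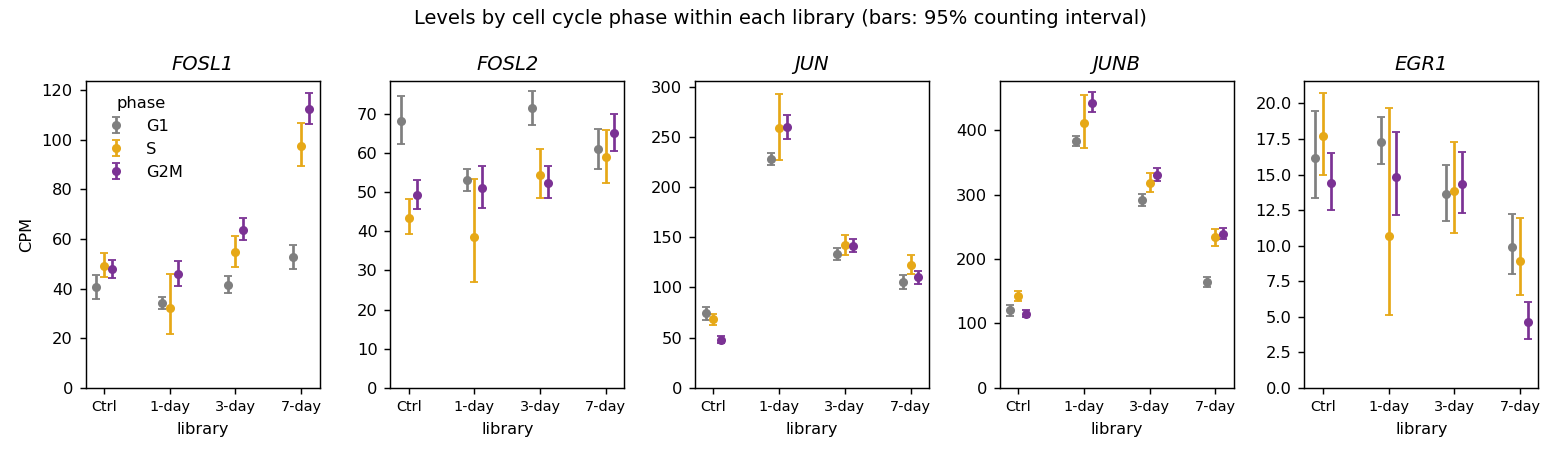
Levels of 5 members in CPM (vertical axis from 0) in cells called G1, S or G2M within each library; bars are 95% counting intervals. *FOSL1* separates by phase most widely at 7-day, at 52.6 CPM in G1 and 112 CPM in G2M cells, and the wide S phase bars at 1-day come from 27 cells.

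Depth and mitochondrial share also moved with some members within libraries. *JUNB* and *IER2* were lower in the deepest than in the shallowest tertile of cells in all 4 libraries, with log2 ratios of -0.44 to -0.67 for *JUNB* and -0.37 to -0.65 for *IER2*, and *JUN* likewise (-0.21 to -0.52). When each cell was thinned, with shallower cells left out, the ratio of *JUNB* at 1-day to Ctrl was 1.62. Thinning keeps the expected fractions within a cell, so it cannot remove a link between depth and level. The part of depth in the ratios between libraries was not tested. *FOS* was higher in the tertile of Ctrl cells with most mitochondrial UMIs than in the tertile with least, at 21.9 against 15.2 CPM, and at 7-day the levels were 3.96 and 2.79. In each of these tertiles the Ctrl level of *FOS* was above that of every tertile at 7-day.

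Other genes of the circuit, from lists assembled for it, are set beside the members. Of 16 further leucine zipper partners, 10 reached 5 CPM, of which 1 was past 2-fold higher and 1 (*MAFG*, 178 and 88.7 CPM) lower at 1-day, 3 higher at 3-day and 2 higher at 7-day. At 1-day this is about the share of all genes, 9.04% higher and 9.97% lower. At 3-day the shares of all genes were 10.1% higher and 6.97% lower, and at 7-day 12.1% and 6.22%. For 10 genes each of these is about 1 gene or fewer. *MAFK*, a small MAF protein, was past 2-fold higher than Ctrl in all 3 treated libraries, at 14.9, 43.9, 38.5 and 38.2 CPM. *MAFF* was past it at 3-day and 7-day, at 8.13, 13.7, 17.7 and 21.1 CPM, and *CREB5*, at 13.1, 25.9, 35.1 and 24.6 CPM, at 3-day alone. Among further partners *ATF5* (35.5 to 53.3 CPM), *CREB1* (13.7 to 19.0) and *CREM* (27.1 to 20.3) were within 2-fold between Ctrl and 7-day.

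Of 32 other immediate early genes, 13 of the 28 that reached the floor of 5 CPM were higher and 1 was lower at 1-day, 14 and 2 of 27 at 3-day, and 14 and 3 of 27 at 7-day. Over all genes the shares higher and lower were 9.04% and 9.97%, 10.1% and 6.97%, and 12.1% and 6.22%. The list medians were 0.98, 1.04 and 1.27 on the log2 scale. Some genes, such as *GADD45B*, reached the floor only through a treated library. With the floor set in Ctrl, 11 were higher and 1 lower of 26 at 1-day, 13 and 2 at 3-day, and 13 and 3 at 7-day. The medians of that set were 0.93, 1.00 and 1.13. *CYR61* and *CTGF*, matricellular genes under YAP and SRF control, stood at 25.4, 332, 418 and 354 CPM and at 12.9, 522, 557 and 293 CPM. *GADD45B*, a known SMAD target, stood at 4.17, 67.5, 60.2 and 27.3 CPM, with the 1-day level highest as for *JUN* and *JUNB*. *PHLDA1* and *IER3* were instead highest at 7-day, at 236 CPM against 40.5 in Ctrl and 295 against 62.0. *KLF2*, a zinc finger factor, went from 5.30 CPM to 1.22. Of the other EGR genes, *EGR2* stood at 0.53, 5.31, 0.40 and 0.35 CPM, near the floor, *EGR4* was at 1.61 CPM or less and *EGR3* was at 0 in 3 libraries. *EGR2* was thus high at 1-day alone, as *FOSB* was.

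Of 35 genes of MAP kinase and serum response factor input and their feedback, 34 symbols were found. At 1-day 4 were higher and 5 lower among 28 at the floor, at 3-day 6 and 1 of 29, and at 7-day 8 and 1 of 30. Over all genes the shares were again 9.04% and 9.97%, 10.1% and 6.97%, and 12.1% and 6.22%. Here too some genes reached the floor only through a treated library. With the floor set in Ctrl, 3 were higher and 5 lower of 27 at 1-day, 4 and 1 at 3-day, and 6 and 1 at 7-day. The 5 lower at 1-day were the MAP kinase phosphatases *DUSP1*, *DUSP4* and *DUSP5* and the inhibitors *SPRY1* and *NAB1*. Other MAP kinase phosphatases, *DUSP7* (8.67 to 25.0 CPM) and *DUSP10* (7.60 to 15.4), were among the 4 higher at 1-day, with *ELK3* and *MKL1*. *DUSP1* stood at 15.2, 4.61, 14.5 and 22.0 CPM, *DUSP4* at 24.8, 8.16, 30.3 and 55.3 CPM, and *DUSP5* at 20.9, 7.16, 17.5 and 34.1 CPM. These 3 were lowest at 1-day and highest at 7-day, as was *FOSL1*. *SPRY1*, an inhibitor of receptor tyrosine kinase signalling, stayed low, at 23.5, 1.67, 1.37 and 4.89 CPM. *DUSP4*, *DUSP7* (38.5 CPM), *DUSP8* (2.60 CPM in Ctrl and 6.54) and *DUSP10* (18.7 CPM) were among those past 2-fold higher at 7-day. So were *ELK3* (19.2 to 87.8 CPM) and the ERK kinase gene *MAP2K1* (43.1 to 116). *DUSP1*, *DUSP5*, *DUSP6* (33.4 to 57.8 CPM) and *DUSP16* (3.10 to 5.52) were not, and *DUSP2* was at 0.42 CPM or less.

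Among 28 textbook AP-1 target genes, the 19 that reached 5 CPM in Ctrl form 1 set for all time points. Of these, 7 were past 2-fold higher and 1 lower at 1-day, 13 and 2 at 3-day, and 15 and 1 at 7-day, with medians of 0.64, 1.52 and 2.39 on the log2 scale. With genes that reached 5 CPM in either library of the pair, a set that differs between time points, at 1-day 7 were higher and 1 was lower of 19 at the floor, at 3-day 14 and 2 of 20, and at 7-day 20 and 1 of 24. Over all genes at that floor the shares higher and lower were 9.04% and 9.97%, 10.1% and 6.97%, and 12.1% and 6.22%. No share of all genes with the floor set in Ctrl was at hand, for this list or those above. The list holds *FOSL1* itself and shares genes with other lists used here. Without these shared genes it was 19 higher and 1 lower of 21 at 7-day, against the 12.1% and 6.22% of all genes given above. At 7-day 5 of the 24, *MMP1*, *MMP9*, *MMP10*, *IL6* and *IL1B*, were below the floor in Ctrl and entered the count through their 7-day level, as *MMP9* did at 3-day. *PLAU*, the urokinase gene, stood at 6.40, 8.50, 45.9 and 149 CPM, and *MMP9* at 2.10, 4.19, 19.1 and 81.2 CPM. *MMP10* (0.37 to 10.1 CPM) and *IL6* (0.07 to 8.0) were near 0 in Ctrl, and the log2 ratio for *IL6* had a wide interval, 5.04 to 9.96. *PLAU* and *MMP9* were thus highest at 7-day, when *JUN* and *JUNB* were below their 1-day level, *FOS* was at its lowest and *FOSL1* at its highest. *HMOX1* and *TIMP1* took another course. *HMOX1* was highest at 1-day, at 147 CPM against 67.7 at 7-day. *TIMP1* was highest at 3-day, at 86.7 CPM against 64.4 at 7-day. *MMP7* was the one target past 2-fold lower at 7-day, and *MMP13* was at 0 throughout.

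**Figure D5:**
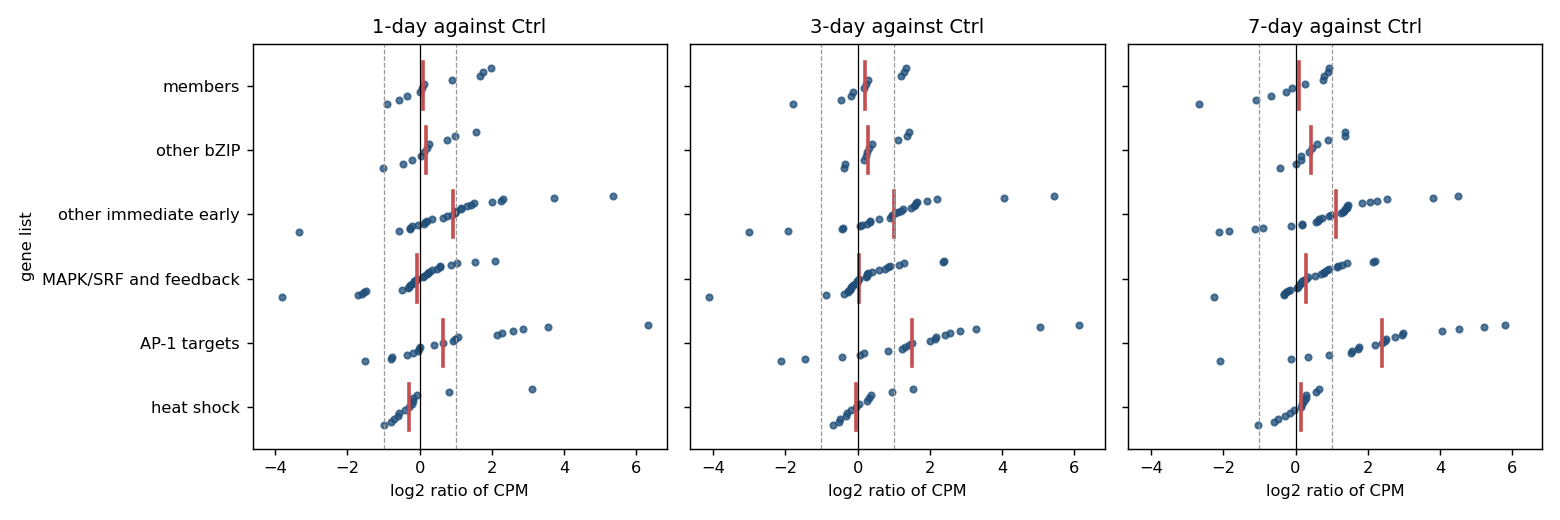
Log2 ratio of CPM to Ctrl (horizontal axis) at 1-day, 3-day and 7-day for the members and 5 lists of related genes, each limited to genes at or above 5 CPM in Ctrl; each point is a gene, red bars are list medians and dashed lines mark 2-fold. The member medians stay between 0.09 and 0.20, and that of 19 AP-1 targets goes from 0.64 to 2.39.

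Heat shock genes, which respond to handling and stress as many immediate early genes do, were within 2-fold of Ctrl for 12 of 13 in each treated library, with median log2 ratios of -0.31, -0.05 and 0.15. *HSPB1* was the exception at 1-day and 3-day, at 834, 7132, 2421 and 756 CPM, and *DNAJB4* at 7-day, at 24.0 CPM in Ctrl and 11.6. Of all genes, 9.04% were past 2-fold higher and 9.97% lower at 1-day, 10.1% and 6.97% at 3-day, and 12.1% and 6.22% at 7-day. *HSPE1*, *HSPD1* and *HSP90AA1* were lower at 7-day than in Ctrl by 0.30 to 0.59 on the log2 scale, and *BAG3* and *DNAJB1* higher by 0.64 and 0.56. The part of handling in the member levels was not tested.

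The genes most like each member were sought among 6330 genes of at least 20 CPM in one library, by the Euclidean distance between log2(CPM + 1) values centred on their mean over the 4 libraries. Nearest to *FOS* was the iron exporter gene *SLC40A1* (distance 0.17), at 31.2, 19.6, 9.68 and 6.15 CPM, followed by *SNHG25* and *AKR1C2*. *FOSB* was followed most closely by *POLD4* (0.16), the noncoding gene *CTD-3252C9.4*, and *EPAS1*. Among the nearest to *FOSL1* were *ZMIZ2* (0.06) and the ERK-activated kinase gene *RPS6KA1* (0.08), the last at 14.8, 11.2, 16.5 and 26.5 CPM. For *JUN* the nearest named genes were *ITGB4* (0.13), at 128, 544, 326 and 265 CPM, and *ADGRG1* (0.14), after the noncoding *RP11-680F8.1* (0.06), and for *JUNB* they were *HCFC1R1*, *CALD1* and *CEACAM19* (0.14 to 0.17). *ATF3* had *PALLD*, *MYL12A* and *SHARPIN* (0.10 to 0.12), and *EGR1* had *RNF128*, *PSMA2* and *TCTEX1D2* (0.13 to 0.17). *FOSL2*, *JUND* and *IER2*, whose levels varied least, had neighbours within 0.06. With 4 libraries, many genes can follow the same course, and closeness says nothing of a link.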

How the data were processed

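OVCA420 cells were profiled with the 10x Genomics Single Cell 3′ kit, in 1 library each for Ctrl, 1-day, 3-day and 7-day. The authors deposited raw counts, 1 UMI total for each gene in each cell, which the submitters' processing notes credit to Cell Ranger 2.0.1 and GRCh38. The matrices used here end part way through each cell list, so 3170 of 10710 cells were analysed, the incomplete last cell of each being left out.

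Cells with more than 200 genes and at most 20% mitochondrial UMIs were retained (Python 3.11.15, scanpy 1.11.5). Scrublet marked 40 cells, which were kept. Counts were summed per library and expressed as CPM with exact Poisson intervals. Ratios have exact conditional intervals and shares exact Clopper-Pearson intervals, at 95%, for counting error only. Interval coverage was tested on simulated Poisson counts, the model that the intervals assume. That check only covers the calculation, not added spread between cells or libraries. Phases used the Seurat 5.3.0 lists. Gene positions are from GENCODE for GRCh38, and promoters from RefSeq for GRCh38.p14.

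No test was made, since no condition has a second library. The members, gene lists and alternatives were chosen with earlier results of these data known. From each list the text names up to 6 genes with the largest absolute log2 ratio of 7-day to Ctrl, plus the EGR and DUSP families. *NAB1*, *MAFG*, *MMP1*, *MMP7*, *MMP13*, *IL1B*, *MKL1* and *HSPB1* were named to complete counts after their values were seen. *HMOX1* and *TIMP1* were named as targets of another course, also after their values were seen. Some genes that these rules would name are not reported here. Tumor data of the study were not analysed here.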

Additional observations from a re-analysis of the deposited data

Results flagged for a closer look

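*FOSL1* was noted because its direction against Ctrl differed between time points, with log2 ratios of -0.34 at 1-day, 0.17 at 3-day and 0.92 at 7-day, each with a counting interval that left out 0. *IER2* was noted for the same reason, with log2 ratios of 0.12 at 1-day, -0.14 at 3-day and -0.27 at 7-day. Within a phase the *IER2* ratios did not change sign. They were -0.04, -0.39 and -0.70 in G1, -0.41, -0.23 and -0.29 in S, and 0.40, 0.13 and 0.05 in G2M cells. The *IER2* intervals included 0 at 1-day in G1 cells and at 3-day and 7-day in G2M cells, so the sign there is open. The *FOSL1* ratios were -0.245, 0.04 and 0.38 in G1, -0.62, 0.15 and 0.99 in S, and -0.06, 0.42 and 1.24 in G2M cells. Their intervals included 0 at 1-day in G2M cells and at 3-day in G1 and S cells. With 1 library per time point these differences between time points were not tested.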

How the results depend on the processing

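Each ratio was recomputed under 12 alternatives to the cell filter, the depth, the cells used and the scaling, of which the removal of barcodes found in several libraries was chosen after seeing the data. Of 600 recomputed log2 ratios, 543 stayed within the counting interval and 57 moved out of it. The sign changed in 16, of which 0 were among the 120 for ratios past 2-fold. Among the 16, *FOSL2* at 7-day against Ctrl was -0.16 in G1 cells, and *FOSB* at 7-day against Ctrl was 0.27 in the later-listed cells, those past the middle of the barcode order. Median-of-ratios scaling shifted log2 CPM relative to Ctrl by 0.08 at 1-day, -0.03 at 3-day and -0.09 at 7-day. In place of 0 members at least 2-fold lower at 1-day than Ctrl, there was 1 in the earlier-listed cells, 1 without the top 1% of cells and 1 at a 1.5-fold line. In place of 2 lower at 7-day than Ctrl, there was 1 in G1 cells and 1 in the earlier-listed cells. In place of 0 lower at 7-day than 3-day, there was 1 after thinning to 18000 UMIs, 1 in G1 cells, 1 for the mean over cells and 1 without the top 1% of cells, and 2 in the later-listed cells and 2 at a 1.5-fold line. A 1.5-fold line also gave 4 members higher at 7-day than Ctrl, 3 lower at 3-day than 1-day and 1 higher at 7-day than 3-day. Of 252 recomputed family shares 223 stayed within their interval and 29 moved. In G1 cells *FOSL1* held 29.2% of FOS family UMIs in Ctrl and 42.8% at 7-day, and *JUND* held 18.4% of JUN family UMIs in Ctrl and 5.3% at 1-day. After thinning *JUND* held 19.9% and 4.6%, and in the later-listed cells *FOS* held 1.5% at 7-day. The cause was not tested. The sets of list genes at 5 CPM in Ctrl were chosen after seeing the data. For the AP-1 targets a set at 5 CPM on the mean of the 4 libraries gave 16 of 20 higher at 7-day. No share of all genes at that floor was at hand. No paired analysis was possible because the labels give no second library of any condition.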
